A study of Homo sapiens with 24 samples.

Results

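Mitophagy is the removal of mitochondria by autophagy, and 6 of its genes, the receptor genes BNIP3, BNIP3L, FUNDC1 and PHB2, the FUNDC1 paralogue FUNDC2 and the kinase gene PINK1, were followed across 24 polyA RNA-seq libraries. Their rows were picked by gene symbol from the deposited counts and make up 6 of 23106 genes. The libraries came from 4 human cancer cell lines, the lung line A549, the colorectal line HCT116 (HCT-116 in the labels), the prostate line PC3 and the breast line T47D. Cells were kept in 21% oxygen (normoxia) or moved to 0.5% oxygen (hypoxia) for 16 h, with 3 libraries per line and oxygen level. The labels list no altered gene or drug for these groups, and the normoxic libraries of the same line served as controls. Culture medium differed between lines: F12K for A549 and PC3 cells, McCoy's 5a for HCT116 cells and DMEM for T47D cells, each with fetal bovine serum. Line and medium therefore cannot be told apart in comparisons between lines, other than that of A549 with PC3 cells. Replicates were numbered in the labels, but separate cultures were not described, so p-values measure the spread between libraries, which may be technical.

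In mitophagy, a receptor on a damaged or superfluous mitochondrion binds ATG8-family proteins on the growing autophagosome membrane, which then encloses the organelle. BNIP3 and BNIP3L (also called NIX) are related outer-membrane proteins of the BCL2 family and are textbook targets of hypoxia-inducible factor (HIF), the transcription factor that accumulates when oxygen falls. FUNDC1 is an outer-membrane receptor controlled mainly by phosphorylation, and FUNDC2 is its paralogue. PINK1 is a kinase that builds up on depolarised mitochondria and starts their tagging with ubiquitin. PHB2 is a prohibitin of the inner membrane that becomes accessible to ATG8 proteins once the outer membrane is breached.

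Library depth ran from 22698584 to 62850747 counts (median 56109796), and the shallowest libraries were PC3 normoxia replicate 1 and HCT116 hypoxia replicate 3. Counts of single genes among the 6 ran from 374 (FUNDC1) to 47503 (PHB2) per library. The hypoxic state was seen in 5 HIF-responsive genes (CA9, VEGFA, EGLN3, PDK1, ADM), which passed the test as higher in 19 of 20 gene and line pairs. The exception was PDK1, the pyruvate dehydrogenase kinase, in PC3 cells (log2 change 0.11). All 5 had their smallest log2 change in PC3 cells. Of all genes tested, 17.6% were called higher in A549, 23.3% in HCT116, 16.6% in PC3 and 6.55% in T47D cells. ADM belongs to the hypoxia signature that the study derived in part from these libraries. EGLN3 and PDK1 were among genes it found bound by HIF and induced in most of its lines. The direction of ADM, EGLN3 and PDK1 here is therefore not independent of those choices. All 3 markers of the A549 line (AKR1B10, ALDH1A1, AKR1C1) and all 3 of the T47D line (ESR1, PGR, GATA3) were highest in their own line. The intestinal genes CDH17 and VIL1 were near 0 in HCT116 cells and only CDX2 marked that line. Of the PC3 markers, VIM was higher in A549 cells and CAV1 was of like level in both (ITGA2 was highest in PC3 cells).

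The proximal promoters of 4 of the 6 genes were matched in the RefSeq promoter table (GRCh38.p14, 250 bases before to 50 after the start). BNIP3L and PINK1 had no entry, so BNIP3 was the only gene higher in all lines whose window could be read. The windows of 2 genes are shown, picked because BNIP3 was higher in hypoxia in each line whereas FUNDC1 was higher in none. A link between these letters and the response to hypoxia was not tested. Capitals mark the letters ACGTG or GCGTG on either strand, the core of the element HIF binds. The BNIP3 window lies at chr10:131981874-131982173 on the minus strand and the FUNDC1 window at chrX:44542810-44543109 on the minus strand.
BNIP3: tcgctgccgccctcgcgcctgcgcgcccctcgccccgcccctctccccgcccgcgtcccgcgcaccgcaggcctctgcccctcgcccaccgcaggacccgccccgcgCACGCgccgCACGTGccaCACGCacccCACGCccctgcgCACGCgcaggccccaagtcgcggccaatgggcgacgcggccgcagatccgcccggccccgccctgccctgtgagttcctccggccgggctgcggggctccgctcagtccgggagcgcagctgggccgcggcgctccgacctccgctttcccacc
FUNDC1: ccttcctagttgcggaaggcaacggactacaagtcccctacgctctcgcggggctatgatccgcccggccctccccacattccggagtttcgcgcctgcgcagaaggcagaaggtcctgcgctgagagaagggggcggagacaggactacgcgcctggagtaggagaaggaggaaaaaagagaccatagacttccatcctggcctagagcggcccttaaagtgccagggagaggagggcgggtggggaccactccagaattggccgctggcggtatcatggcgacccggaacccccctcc

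The BNIP3 window held 2 ACGTG matches, which are both strands of 1 CACGTG palindrome, and 4 GCGTG matches, between 143 and 104 bases before the start. FUNDC2 held 2 GCGTG matches, and neither FUNDC1 nor PHB2 held a match. Of 35116 promoters in the table, 21.4% held ACGTG, 36.5% held GCGTG and 48.4% held either. A match describes letters in the window and says nothing about binding in these cells.

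**Figure D1:**
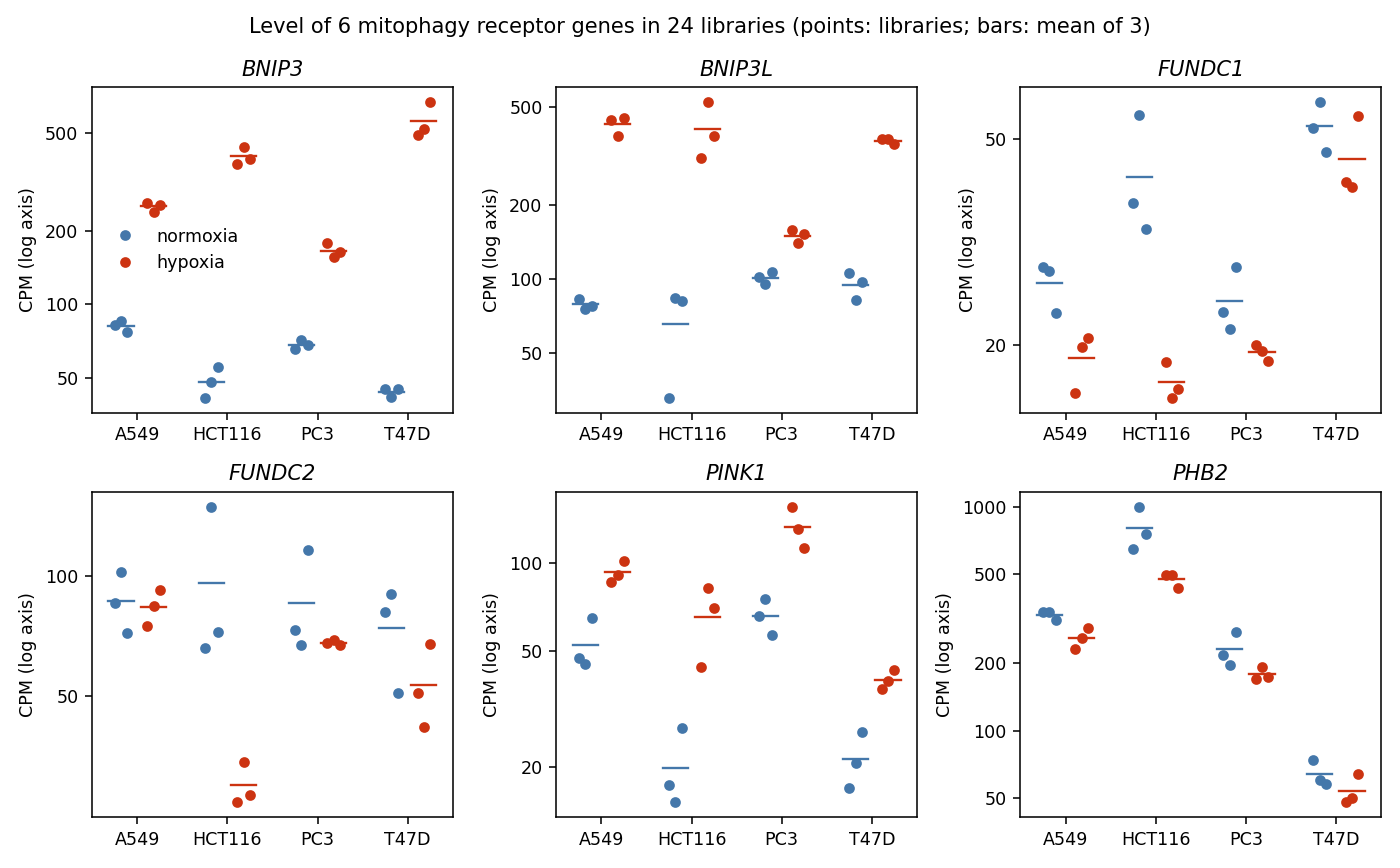
Counts scaled to library size (CPM, with TMM factors, log axis) of the 6 genes in each of 24 libraries, by line and oxygen level, with bars at the mean of 3 libraries. The hypoxic points of BNIP3, BNIP3L and PINK1 lie above the normoxic points in all 4 lines, and those of FUNDC2 overlap the normoxic points in A549, PC3 and T47D cells.

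BNIP3, BNIP3L and PINK1 were upregulated in hypoxia in all 4 lines, and FUNDC1, FUNDC2 and PHB2 were upregulated in none. A gene was called when its adjusted p in edgeR's quasi-likelihood test was below 0.05 and its fold change exceeded 1.2, with p adjusted by Benjamini-Hochberg over all genes tested in the line. In A549 cells 3 of the 6 genes were called higher and 2 lower, against 17.6% and 17.8% of all genes tested. HCT116 cells had 3 called higher and 3 lower, against 23.3% and 27.0%. PC3 cells had 3 higher and 2 lower, against 16.6% and 15.7%. T47D cells had 3 higher and 0 lower in edgeR (0 lower also at an unadjusted p under 0.05 and with DESeq2), against 6.55% and 6.69%. The highest and lowest values of the 2 oxygen levels did not overlap for 19 of 24 gene and line pairs, the same 19 that were called. Over all genes such separation was found in 48.1% for A549, 60.3% for HCT116, 51.4% for PC3 and 32.5% for T47D cells. These are bulk libraries, so fewer cells of a type and less RNA per cell cannot be told apart.

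**Figure D2:**
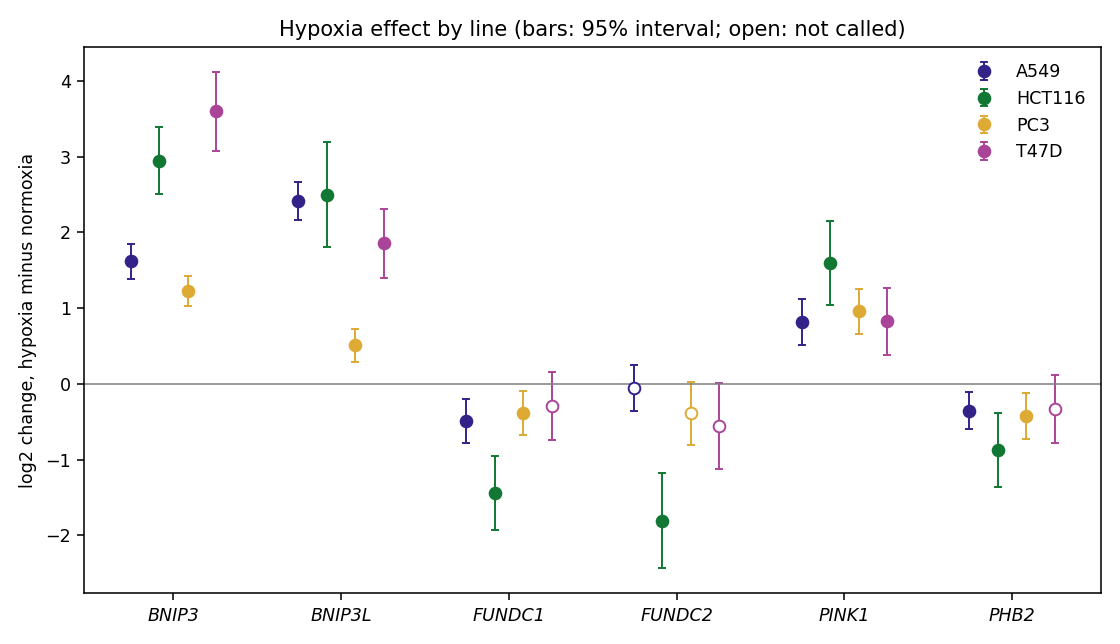
Log2 change from normoxia to hypoxia of each gene in each line, with 95% intervals from edgeR and open points where the gene was not called. BNIP3 runs from 1.23 in PC3 to 3.60 in T47D cells, and the points of FUNDC1, FUNDC2 and PHB2 lie below 0 in all 4 lines.

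BNIP3, the BH3-domain outer-membrane receptor (chromosome 10, 133781188 to 133795471, minus strand, GRCh37, 6 exons in the MANE Select transcript), had the highest fold of the 6 genes in HCT116, PC3 and T47D cells. Normoxic T47D libraries held 44.8, 41.7 and 45.2 CPM and hypoxic ones 491, 522 and 672 CPM. That was a 12.1-fold rise (log2 change 3.60 ± 0.24 SE, adjusted p = 2.13e-06), and the hypoxic replicate 3 stood above the other 2. HCT116 cells went from 41.3, 47.8 and 55.4 CPM to 375, 441 and 394 CPM, a 7.72-fold rise (log2 change 2.95 ± 0.21 SE, adjusted p = 4.89e-06). For A549 cells the values were 82.3, 85.1 and 77.3 CPM in normoxia and 259, 238 and 256 CPM in hypoxia. The A549 rise was 3.07-fold (log2 change 1.62 ± 0.10 SE, adjusted p = 9.67e-07). PC3 libraries held 65.7, 71.3 and 67.9 CPM in normoxia and 178, 155 and 164 CPM in hypoxia, a 2.34-fold rise (log2 change 1.23 ± 0.09 SE, adjusted p = 9.84e-05). Normoxic and hypoxic libraries were far apart in each line, with no overlap. BNIP3 passed the test in each of the 4 lines under each of 13 alternative settings.

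The size of the BNIP3 response differed between lines (interaction F test in edgeR over all 24 libraries, adjusted p = 3.49e-08), as did that of 18.3% of all genes tested. It was larger in T47D than in HCT116 cells by 0.61 ± 0.19 on the log2 scale (adjusted p = 0.0476). That call was lost without replicate 1 (adjusted p = 0.0880), 2 (0.247) or 3 (0.387) of each group, and with library totals as the scaling (0.0835), no filter (0.0544) or the replicate block (0.0567). HCT116 cells exceeded A549 cells by 1.44 ± 0.19 (adjusted p = 9.37e-05; 0.0552 without replicate 2). PC3 and A549 cells were not called different, with PC3 minus A549 at -0.34 and a 95% interval of -0.74 to 0.06. Shares of all genes called in these pairwise contrasts of effect were 9.07% for T47D against HCT116, 16.7% for HCT116 against A549, 0.758% for PC3 against A549, 2.11% for T47D against A549, 14.9% for PC3 against HCT116 and 2.25% for T47D against PC3.

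The order of BNIP3 levels changed with oxygen, T47D cells having the lowest mean in normoxia and the highest in hypoxia. With library totals as the scaling HCT116 cells were lowest in normoxia (HCT116 minus T47D at -0.10 on the log2 scale). In normoxia the mean ran from 81.5 ± 3.96 CPM (SD, n = 3) in A549 cells through 68.3 ± 2.81 in PC3 and 48.2 ± 7.02 in HCT116 to 43.9 ± 1.89 in T47D cells. In that order PC3 differed from HCT116 (1.42-fold, adjusted p = 0.00251), a call lost without replicate 1 (0.0633) or 2 (0.0564), whereas A549 and PC3, and HCT116 and T47D, were not called different. After hypoxia T47D was highest at 562 ± 96.7 CPM, followed by HCT116 at 403 ± 34.2, A549 at 251 ± 11.1 and PC3 at 166 ± 11.3. Each neighbour in the hypoxic order differed, by 1.39-fold (adjusted p = 0.00346), 1.61-fold (adjusted p = 1.30e-04) and 1.51-fold (adjusted p = 5.04e-04). The first step was lost without replicate 3 (adjusted p = 0.0833) and the second without replicate 2 (0.0643). Differences between lines were the rule among all genes. In normoxia 65.0% differed between HCT116 and A549, 60.5% between PC3 and A549, 67.7% between T47D and A549, 66.0% between PC3 and HCT116, 69.0% between T47D and HCT116 and 68.1% between T47D and PC3. The same 6 pairs in hypoxia gave 60.1%, 62.7%, 67.5%, 60.6%, 68.0% and 68.8%. Over the 6 mitophagy genes, 6 of 18 neighbour pairs differed in normoxia and 11 of 18 in hypoxia. Neighbours are adjacent lines in the order of each gene, and no such share was computed over all genes. These counts therefore cannot be set against the shares of fixed line pairs.

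BNIP3L, the receptor best known for clearing mitochondria from maturing red cells (chromosome 8, 26240570 to 26363152, plus strand, 6 exons), was also higher in hypoxia throughout, with a different order of lines. Normoxic HCT116 libraries held 33.00, 83.6 and 81.5 CPM, with replicate 1 well below the other 2, and hypoxic ones 311, 522 and 380.2 CPM. This 5.65-fold rise (log2 change 2.50 ± 0.32 SE, adjusted p = 1.31e-04) had the widest error of the 4 lines. A549 libraries went from 83.2, 75.9 and 77.9 CPM to 442, 380.0 and 450.4 CPM, a 5.35-fold rise (log2 change 2.42 ± 0.11 SE, adjusted p = 7.47e-08). This was the one line in which the fold of BNIP3L was above that of BNIP3. T47D libraries held 106, 82.1 and 97.3 CPM in normoxia and 368, 371 and 353 CPM in hypoxia, a 3.62-fold rise (log2 change 1.86 ± 0.21 SE, adjusted p = 1.72e-04). The smallest response was in PC3 cells, from 102, 95.3 and 107 CPM to 158, 140.5 and 153 CPM. The PC3 groups did not overlap and the rise was 1.43-fold (log2 change 0.51 ± 0.10 SE, adjusted p = 0.00569), but a single fit of all 24 libraries, which shares 1 estimate of spread between lines, did not call it (log2 change 0.57, adjusted p = 0.119). BNIP3L belongs to the hypoxia signature that the study derived in part from these libraries, so its direction here is not independent of that choice. The same holds for BNIP3, which the study counted among genes bound by HIF and induced in most of its lines.

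The BNIP3L response also differed between lines (interaction adjusted p = 4.59e-04), and PC3 cells stood apart from the rest. The PC3 effect was smaller than that of A549 cells by 1.86 ± 0.32 on the log2 scale (adjusted p = 0.00267), than that of HCT116 cells by 2.049 ± 0.32 (adjusted p = 3.14e-04) and than that of T47D cells by 1.37 ± 0.32 (adjusted p = 0.0187). The call against A549 was lost without replicate 2 of each group (adjusted p = 0.0566) or 3 (0.0993), and that against T47D likewise (0.244 and 0.0877). No difference was called among A549, HCT116 and T47D cells, where the 95% intervals were -0.46 to 0.84 for HCT116 minus A549, -1.14 to 0.17 for T47D minus A549 and -1.33 to -0.02 for T47D minus HCT116, which was called with the replicate block (adjusted p = 0.0450). In normoxia the levels were 101 ± 5.89 CPM in PC3, 95.01 ± 11.96 in T47D, 79.00 ± 3.74 in A549 and 66.02 ± 28.6 in HCT116 cells, and no neighbours in that order were called different. With library totals as the scaling T47D and A549 were (adjusted p = 0.0328). Under hypoxia A549 (424 ± 38.4), HCT116 (404 ± 108) and T47D (364 ± 9.87) cells again did not differ between neighbours, and T47D exceeded PC3 cells (150.2 ± 8.80) 2.42-fold (adjusted p = 2.37e-05).

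**Figure D3:**
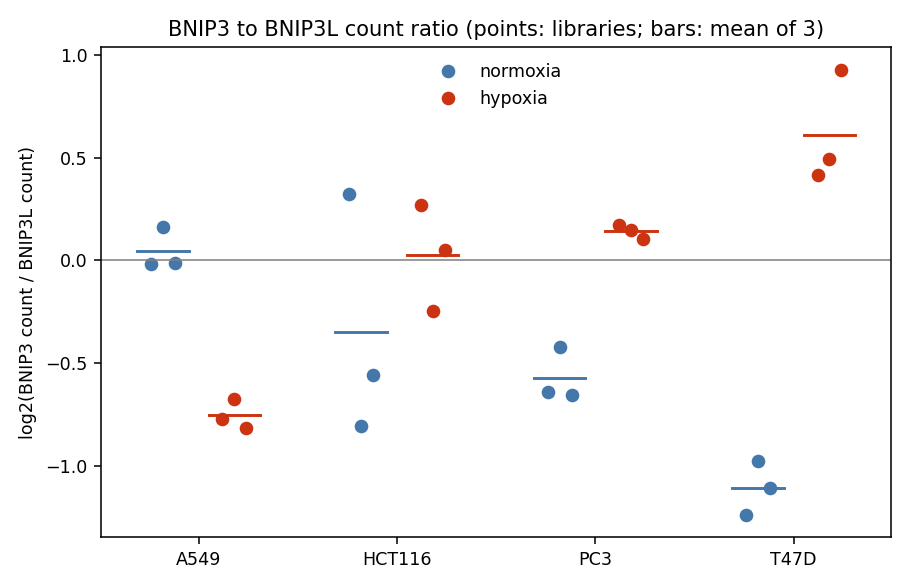
Log2 of the BNIP3 count over the BNIP3L count in each library, by line and oxygen level, with bars at the mean of 3. The ratio falls in A549 cells, from 0.05 to -0.75, and rises in T47D cells, from -1.11 to 0.61, while the HCT116 groups overlap.

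The ratio of the 2 paralogues had a lower mean in hypoxia in A549 cells and a higher one in the other 3 lines. Within a library the ratio of counts does not depend on library scaling, and its log2 in A549 cells was -0.02, 0.17 and -0.01 in normoxia and -0.77, -0.67 and -0.82 in hypoxia. BNIP3 thus lost ground to BNIP3L in A549 cells, with a log2 change of -0.80 and no overlap. The T47D ratios were -1.24, -0.98 and -1.11 in normoxia and 0.41, 0.49 and 0.93 in hypoxia, a change of 1.72, so BNIP3 gained. PC3 cells moved the same way, from -0.64, -0.42 and -0.66 to 0.17, 0.15 and 0.10, a change of 0.71. In HCT116 cells the groups overlapped (0.33, -0.81 and -0.56 against 0.27, -0.24 and 0.05), with a change of 0.37 that became 0.59 without replicate 1, 0.28 without replicate 2 and 0.25 without replicate 3. An exact permutation test of 3 against 3 cannot go below p = 0.10, and A549, PC3 and T47D cells reached it (two-sided exact p = 0.1, against 0.4 in HCT116 cells). Averaged over lines the change was 0.50 (two-sided exact permutation within lines, p = 0.0425), but sign flips of the 12 same-numbered pairs gave p = 0.103 in an exact test, and leaving out replicate 1, 2 or 3 gave exact p = 0.0988, 0.137 and 0.171. The difference of the change between lines was not tested.

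Per kilobase of the MANE Select transcript (RPKM, 1542 bases for BNIP3 and 3452 for BNIP3L), BNIP3 stood above BNIP3L in each line in hypoxia, by a ratio of 1.33 in A549, 2.28 in HCT116, 2.47 in PC3 and 3.42 in T47D cells. In normoxia the ratios were 2.31, 1.76, 1.51 and 1.04. This order of the 2 genes depends on the length chosen. The annotation holds 44 BNIP3 pseudogenes and 0 of BNIP3L, and fragments mapping to more than 1 place had been removed, so the BNIP3 level is uncertain. Its part in the ratio was not tested. With the union of annotated exons (4050 and 4149 bases) normoxic T47D cells held 10.8 RPKM of BNIP3 and 22.9 of BNIP3L. Hypoxic A549 cells held 61.99 and 102 RPKM on that scale, where BNIP3L was the higher. In normoxia PHB2 had the highest RPKM of the 6 on MANE lengths in HCT116 (581 ± 129.9, SD, n = 3), A549 (239 ± 11.7) and PC3 cells (167 ± 29.6). T47D cells held 46.6 ± 6.21 RPKM of PHB2 and 50.1 ± 5.52 of FUNDC1.

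PINK1, the kinase of the ubiquitin branch of mitophagy (chromosome 1, 20959951 to 20978004, plus strand, 8 exons), was upregulated in each line by a factor that stayed below that of BNIP3. HCT116 libraries went from 17.4, 15.1 and 27.2 CPM to 44.01, 81.9 and 69.9 CPM, a 3.03-fold rise (log2 change 1.60 ± 0.26 SE, adjusted p = 3.29e-04). PC3 libraries held 65.9, 75.3 and 56.7 CPM in normoxia and 156, 130.4 and 112 CPM in hypoxia, a 1.94-fold rise (log2 change 0.96 ± 0.13 SE, adjusted p = 0.00195). A549 values were 47.3, 45.1 and 64.9 CPM and 85.8, 91.2 and 101 CPM, a 1.76-fold rise (log2 change 0.82 ± 0.14 SE, adjusted p = 0.00130). Groups did not overlap in any of these lines. T47D libraries held 16.9, 20.7 and 26.4 CPM in normoxia and 37.04, 39.3 and 43.00 CPM in hypoxia, again without overlap, a 1.77-fold rise (log2 change 0.82 ± 0.20 SE, adjusted p = 0.0218). This T47D call was lost without normoxia replicate 1 (log2 change 0.70, adjusted p = 0.145) or replicate 2 (0.82, adjusted p = 0.0945). A difference of the effect between lines was not called (interaction adjusted p = 0.115). Of the pairs, HCT116 minus A549 was called with the replicate block (adjusted p = 0.0296, against 0.0533 without) and PC3 minus HCT116 without replicate 3 (0.0468). PINK1 was highest in PC3 cells at both oxygen levels (65.98 ± 9.26 CPM in normoxia, 133 ± 21.9 in hypoxia). In normoxia A549 cells exceeded T47D cells 2.45-fold (adjusted p = 1.70e-05), and neither PC3 and A549 nor T47D and HCT116 cells were called different (PC3 and A549 were without replicate 3, adjusted p = 0.0263). The annotated antisense gene PINK1-AS overlaps PINK1 exons. The kit marks strand, but the strand setting of the counting was not given in the sources used here, so reads of the 2 genes cannot be told apart.

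FUNDC1, the outer-membrane receptor (chromosome X, 44382885 to 44402105, minus strand, 5 exons), was lower in hypoxia in A549, HCT116 and PC3 cells. HCT116 libraries fell from 37.6, 55.6 and 33.5 CPM to 18.6, 15.8 and 16.5 CPM, a 2.72-fold decrease (log2 change -1.44 ± 0.23 SE, adjusted p = 3.03e-04). Without normoxia replicate 2, the highest of the group, the HCT116 log2 change was -1.11. A549 libraries went from 28.3, 27.7 and 23.1 CPM to 16.2, 19.9 and 20.6 CPM, a 1.40-fold decrease (log2 change -0.49 ± 0.13 SE, adjusted p = 0.0136). The A549 call was lost without hypoxia replicate 1, normoxia replicate 1 or normoxia replicate 2 (log2 change -0.45 to -0.38, adjusted p = 0.0555 to 0.0573) and in the single fit of 24 libraries (-0.48, adjusted p = 0.0634). PC3 values were 23.2, 21.5 and 28.3 CPM and 19.99, 19.5 and 18.7 CPM, a 1.30-fold decrease (log2 change -0.38 ± 0.13 SE, adjusted p = 0.0462) close to the threshold. The PC3 call was lost without any one of hypoxia replicates 1, 2 and 3 or normoxia replicates 1 and 3 (log2 change -0.42 to -0.24, adjusted p = 0.0851 to 0.125) and in the single fit (-0.33, adjusted p = 0.254). T47D groups overlapped, at 52.4, 58.8 and 47.2 CPM in normoxia and 41.3, 40.3 and 55.4 CPM in hypoxia (log2 change -0.29 ± 0.21 SE, adjusted p = 0.363, 95% interval -0.74 to 0.16).

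FUNDC1's decrease was largest in HCT116 cells, where it exceeded that of A549 by 0.831 ± 0.25 (adjusted p = 0.0257), that of PC3 by 0.985 ± 0.25 (adjusted p = 0.0119) and that of T47D by 1.10 ± 0.25 (adjusted p = 0.00889) on the log2 scale. Each of these 3 calls was lost when 1 replicate number was left out of all groups, the A549 one without replicate 1 (0.0550), 2 (0.293) or 3 (0.0650), the PC3 one without 1 (0.0885) or 2 (0.425) and the T47D one without 2 (0.169) or 3 (0.0563). The interaction over the 4 lines was called (adjusted p = 0.0116) but not without replicate 1 of each group (adjusted p = 0.0828) or without replicate 2 (0.277). T47D cells held the most FUNDC1 in normoxia (52.8 ± 5.82 CPM) and in hypoxia (45.6 ± 8.45 CPM). They exceeded PC3 cells, next in the hypoxic order, 2.35-fold (adjusted p = 1.18e-06), while PC3, A549 and HCT116 cells (19.4 ± 0.662, 18.9 ± 2.36 and 16.97 ± 1.44 CPM) were not called different between neighbours.

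FUNDC2, the paralogue of FUNDC1 (chromosome X, 154254255 to 154288579, plus strand, 5 exons), was called lower only in HCT116 cells. Normoxic HCT116 libraries held 66.02, 149 and 72.4 CPM and hypoxic ones 27.1, 34.3 and 28.4 CPM, a 3.51-fold decrease (log2 change -1.81 ± 0.29 SE, adjusted p = 3.38e-04). Normoxia replicate 2 was far above the other 2 of its group, and without it the log2 change was -1.26 (adjusted p = 6.23e-04), still called. A549 groups overlapped at 85.8, 103 and 71.99 CPM and 74.9, 84.2 and 92.6 CPM (log2 change -0.06 ± 0.14 SE, adjusted p = 0.781, 95% interval -0.35 to 0.24). PC3 libraries held 73.4, 67.5 and 116 CPM in normoxia and 68.2, 69.3 and 67.1 CPM in hypoxia (log2 change -0.39 ± 0.19 SE, adjusted p = 0.136). Normoxia replicate 3 stood apart in PC3 cells, where the log2 change was -0.08 without it, and the gene was called without normoxia replicate 2 (-0.55, adjusted p = 0.0196). T47D values were 81.3, 90.4 and 50.9 CPM and 50.97, 41.96 and 67.5 CPM (log2 change -0.56 ± 0.26 SE, adjusted p = 0.167), called without hypoxia replicate 3 (-0.76, adjusted p = 0.0453) or normoxia replicate 3 (-0.78, adjusted p = 0.0447). The HCT116 effect was more negative than that of A549 by 1.63 ± 0.37 (adjusted p = 0.00651), of PC3 by 1.35 ± 0.37 (adjusted p = 0.0175) and of T47D by 1.21 ± 0.37 (adjusted p = 0.0408). These calls too were lost without replicate 2 (adjusted p = 0.0656, 0.355 and 0.168), the PC3 one also without 1 (0.116) and the T47D one without 1 (0.0888), without 3 (0.183) and with library totals (0.0662). Its interaction was called (adjusted p = 0.0140) but not without replicate 1 (0.103) or replicate 2 (0.127). In normoxia no neighbours were called different, from 95.9 ± 46.4 CPM in HCT116 to 74.2 ± 20.7 in T47D cells. In hypoxia HCT116 cells were lowest at 29.95 ± 3.83 CPM, and T47D cells, next above, exceeded them 1.78-fold (adjusted p = 0.00687; 0.0681 without replicate 1 and 0.0572 without replicate 3). FUNDC2 overlaps F8 on the other strand at an exon edge, where reads of the 2 genes cannot be told apart.

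PHB2, the inner-membrane prohibitin (chromosome 12, 7074490 to 7079943, minus strand, 10 exons), was modestly lower in hypoxia in 3 lines. HCT116 libraries held 648, 999 and 758 CPM in normoxia and 497, 496 and 432 CPM in hypoxia, a 1.84-fold decrease (log2 change -0.88 ± 0.23 SE, adjusted p = 0.00615) that was lost without hypoxia replicate 3 (log2 change -0.76, adjusted p = 0.0636). A549 values were 340.0, 339 and 311 CPM and 231, 260.2 and 286 CPM, a 1.28-fold decrease (log2 change -0.36 ± 0.11 SE, adjusted p = 0.0267). PC3 values were 219, 197 and 276 CPM and 171, 193 and 174 CPM, a 1.34-fold decrease (log2 change -0.42 ± 0.14 SE, adjusted p = 0.0399). In both lines the groups did not overlap but came close. The A549 call was lost without hypoxia replicate 1 or 2 or normoxia replicate 1 or 2 (log2 change -0.35 to -0.27, adjusted p = 0.0877 to 0.112) and in the single fit (-0.35, adjusted p = 0.159). The PC3 call was lost without hypoxia replicate 1, 2 or 3 or normoxia replicate 1 or 3 (log2 change -0.47 to -0.25, adjusted p = 0.0502 to 0.121) and in the single fit (-0.37, adjusted p = 0.178). T47D groups overlapped, at 73.96, 60.6 and 58.00 CPM and 47.9, 49.9 and 64.3 CPM (log2 change -0.33 ± 0.21 SE, adjusted p = 0.302, 95% interval -0.78 to 0.12). No difference of the effect between lines was called (interaction adjusted p = 0.325). In level, each neighbour in the order HCT116, A549, PC3, T47D differed at both oxygen levels. In normoxia those steps were 2.43-fold (adjusted p = 4.15e-07), 1.43-fold (0.0102) and 3.60-fold (8.90e-10). The A549 to PC3 step was lost without replicate 1 in normoxia (0.0972), without replicate 2 in normoxia (0.0982) and without replicate 3 in hypoxia (0.0586). SCARNA12, a small Cajal body RNA gene, lies within a PHB2 intron on the same strand and had 2 to 229 counts of its own.

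**Figure D4:**
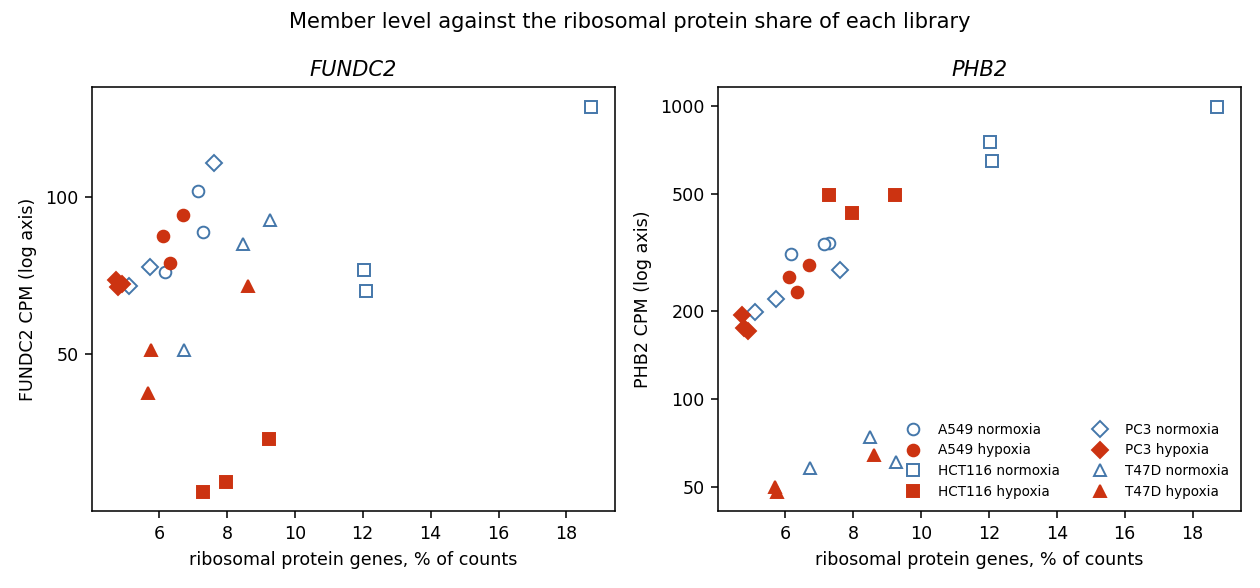
CPM (log axis) of FUNDC2 and PHB2 in each of 24 libraries against the share of the library's counts on 87 cytosolic ribosomal protein genes. HCT116 normoxia replicate 2 has the highest share, 18.7%, and the highest value of both genes.

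Within groups, FUNDC1, FUNDC2, PHB2 and also BNIP3L were often high in the libraries with a larger share of counts on 87 cytosolic ribosomal protein genes. The set was chosen after these values were seen. That share was 12.1, 18.7 and 12.04% in normoxic and 7.30, 9.23 and 7.97% in hypoxic HCT116 libraries. PC3 libraries gave 5.73, 5.11 and 7.62% and 4.91, 4.73 and 4.78%. For both lines the share was higher in normoxia without overlap, as were FUNDC1 and PHB2. A549 libraries gave 7.29, 7.16 and 6.18% and 6.34, 6.11 and 6.71%, and T47D libraries 8.49, 9.27 and 6.73% and 5.76, 5.69 and 8.63%, with overlap in both. FUNDC1 and PHB2 were lower in hypoxic A549 libraries without overlap. In 7 of 8 groups the library with the highest share was also the one with the most FUNDC1, and this held in 6 of 8 for FUNDC2, 5 for PHB2, 6 for BNIP3L, 4 for PINK1 and 3 for BNIP3. The library with the lowest share held the least of the gene in 5 of 8 groups for FUNDC1 and FUNDC2, 3 for PHB2, 4 for BNIP3 and BNIP3L and 1 for PINK1. Such counts were not made over all genes. The part of the ribosomal protein share in the decreases of FUNDC1, FUNDC2 and PHB2 was not tested.

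**Figure D5:**
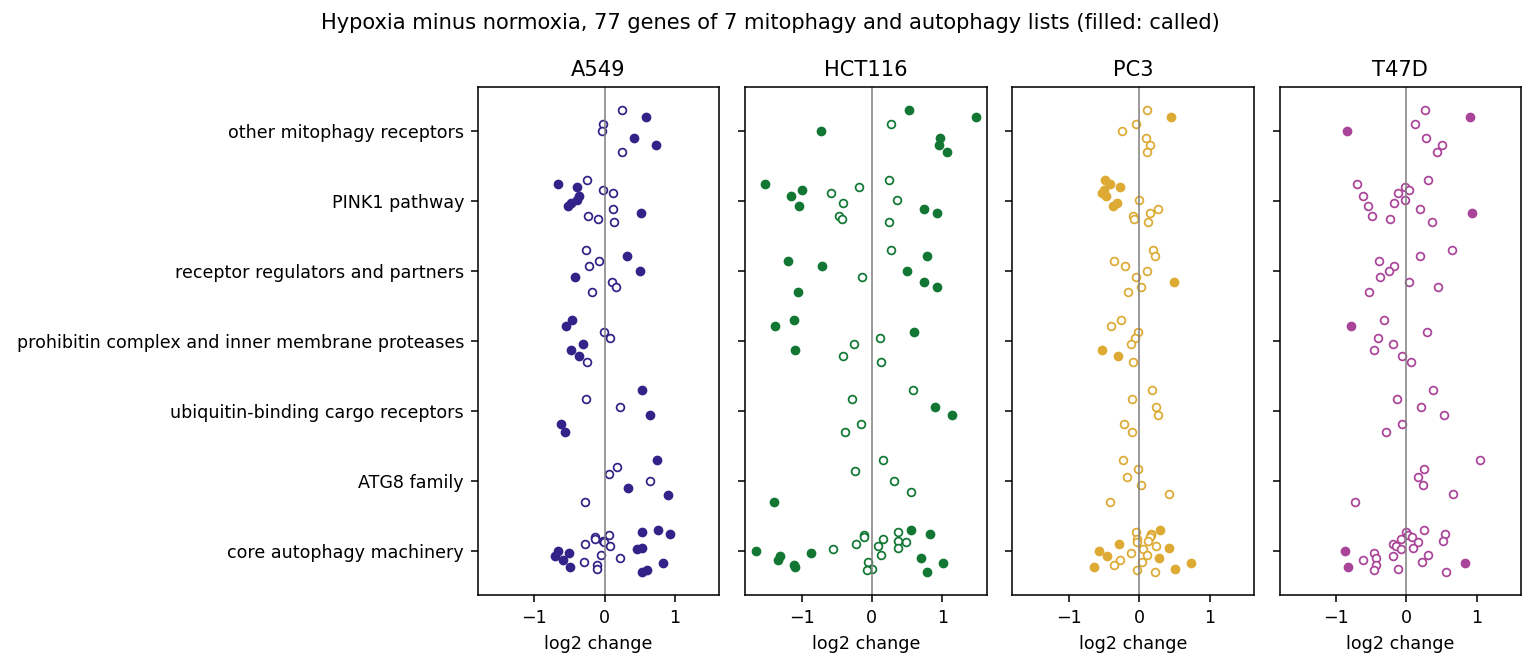
Log2 change from normoxia to hypoxia of the tested genes of 7 mitophagy and autophagy lists (77 genes in all) in each line, 1 point per gene, filled where called. Filled points lie on both sides of 0 in the core autophagy machinery of all 4 lines, and all filled points of the prohibitin list lie below 0 in A549, PC3 and T47D cells.

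Beyond these 6 genes, 77 other genes of mitophagy and autophagy were counted in 7 lists. Over all of them, 19 of 76 tested were called higher and 19 lower in A549 cells, 19 and 18 of 74 in HCT116, 7 and 14 of 75 in PC3 and 3 and 4 of 75 in T47D cells. The replicate block gave 5 higher in the T47D line. The median log2 change of the listed genes was -0.02, 0.05, -0.04 and -0.03 in that order, beside -0.01, -0.03, -0.01 and -0.01 over all genes tested. Over all genes tested the higher and lower shares were 17.6% and 17.8% in A549, 23.3% and 27.0% in HCT116, 16.6% and 15.7% in PC3 and 6.55% and 6.69% in T47D cells, against 25.0% and 25.0%, 25.7% and 24.3%, 9.33% and 18.7%, and 4.0% and 5.33% of the listed genes. In PC3 cells the share of lower calls was near that of all genes tested and the share of higher calls was below it. The PC3 counts moved to 3 higher and 0 lower in the single edgeR fit of 24 libraries (6 and 10 at an unadjusted p under 0.05). They also moved without hypoxia replicate 1 (4 higher, 2 lower) or hypoxia replicate 2 (4 and 3). The T47D counts moved to 11 lower with library totals and to 0 higher and 0 lower without normoxia replicate 1 (4 and 8 at an unadjusted p under 0.05 in edgeR) or 2 (6 and 11). No listed gene was called in opposite directions in different lines. The counts of each list below stand beside the same shares of all genes tested.

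Among 7 other receptors, 3 were higher in A549, 5 in HCT116, 1 in PC3 and 1 in T47D cells, and 1 was lower in HCT116 and in T47D. In A549 and PC3 cells edgeR called 0 lower, as did DESeq2 and an unadjusted p under 0.05. FKBP8, an outer-membrane receptor of the immunophilin family, was called higher in all 4 lines, with log2 changes of 0.59 in A549, 1.47 in HCT116, 0.45 in PC3 and 0.91 in T47D cells. Its call was lost in T47D without normoxia replicate 1 (adjusted p = 0.190) or 2 (0.112) and in PC3 in the single fit (0.0891). AMBRA1, a scaffold of autophagy initiation that can itself bind LC3, was called in A549 (0.73) and HCT116 (0.96) cells, as was NLRX1, a mitochondrial NOD-like protein (0.42 and 0.97). NIPSNAP2 (listed as GBAS), a mitochondrial matrix protein, was lower in HCT116 (-0.72) and T47D (-0.84) cells, the T47D call being lost without normoxia replicate 1 or 2.

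Of 14 tested genes that act with PINK1 in import, ubiquitin tagging and mitochondrial dynamics, 6 were lower and 1 higher in A549, 4 and 2 in HCT116, 8 and 0 in PC3 and 0 and 1 in T47D cells. At an unadjusted p under 0.05 edgeR gave 1 higher in PC3 and 4 lower in T47D, and DESeq2 called 0 and 1. USP15, a deubiquitinase, was lower in A549 (-0.66), HCT116 (-1.52) and PC3 (-0.41) cells and stood at -0.70 (not called) in T47D. TOMM22, a receptor of the import pore that PINK1 uses, and MFN1, a fusion GTPase of the outer membrane, were lower in the same 3 lines (log2 change -1.15 and -1.04 in HCT116 cells). The PC3 calls of USP15, TOMM22 and MFN1 were lost in the single fit of 24 libraries. VDAC1, the outer-membrane channel, went the other way in A549 (0.52), HCT116 (0.93) and T47D (0.93) cells. Its T47D call was lost without normoxia replicate 1 or 2.

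Genes that work beside PHB2 in the inner membrane were lower or not called in A549, PC3 and T47D cells. Of 8 prohibitin partners and proteases, 5 were lower in A549, 3 in HCT116, 2 in PC3 and 1 in T47D cells, and AFG3L2 in HCT116 cells (0.59) was the single one called higher. Of all genes tested, 17.8% were lower in A549, 27.0% in HCT116, 15.7% in PC3 and 6.69% in T47D cells. In the other 3 lines edgeR called 0 higher, with 0 also at an unadjusted p under 0.05 and 0 by DESeq2. STOML2, a scaffold of the cardiolipin-rich inner membrane, was lower in A549 (-0.54), HCT116 (-1.38) and T47D (-0.79) cells. PHB1 (listed as PHB), the partner of PHB2 in the prohibitin ring, was lower in A549 (-0.47) and HCT116 (-1.10) cells. OMA1, a stress-activated protease, was lower in A549 (-0.48), HCT116 (-1.10) and PC3 (-0.52) cells, and PARL, the protease that cuts imported PINK1, in A549 (-0.36) and PC3 (-0.30) cells. The PC3 calls of OMA1 and PARL were lost in the single fit of 24 libraries, and the T47D call of STOML2 without normoxia replicate 1 or 2.

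Regulators of the receptors were called in both directions. Of 9, 2 were higher and 1 lower in A549, 4 and 3 in HCT116, 1 and 0 in PC3 and 0 and 0 in T47D cells. At an unadjusted p under 0.05 edgeR gave 1 lower in PC3 and 1 in each direction in T47D cells, and DESeq2 called 1 lower in each of these lines. BCL2L1, which encodes BCL-XL, was higher in A549 (0.32) and HCT116 (0.78) cells. PPTC7, a mitochondrial phosphatase that restrains BNIP3 and BNIP3L, was higher in the same lines (0.50 and 0.50). SRC, a kinase of FUNDC1, was higher in HCT116 (0.74) and PC3 (0.49) cells.

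Of 25 core autophagy genes, 8 were higher and 5 lower in A549, 5 and 6 in HCT116, 5 and 4 in PC3 and 1 and 2 in T47D cells. ATG9A, the membrane-spanning lipid scramblase, was higher in all 4 lines, with log2 changes of 0.83 in A549, 1.01 in HCT116, 0.74 in PC3 and 0.83 in T47D cells. In T47D the ATG9A call was lost without normoxia replicate 1 (adjusted p = 0.1304) or 2 (0.0766). ATG3, the conjugating enzyme for ATG8 proteins, was lower in all 4 (-0.66, -1.65, -0.57 and -0.87). The ATG3 call was lost in T47D without hypoxia replicate 1 (adjusted p = 0.0951) or 2 (0.0864) or normoxia replicate 1 (0.143) or 2 (0.0974), and in PC3 without hypoxia replicate 1 (0.0592) and in the single fit (0.0750). ATG12, the ubiquitin-like protein of the conjugation system, was also lower in each line (-0.49, -1.09, -0.65 and -0.84), and its partner ATG5 in A549 (-0.60) and HCT116 (-1.33) cells. For ATG12 the T47D call was lost without the same 4 libraries (adjusted p = 0.0857, 0.0799, 0.147 and 0.104), and the A549 and PC3 calls in the single fit (0.1001 and 0.0677). Of the ATG8 family, 3 of 7 tested were higher in A549, and 0 of 5, 0 of 6 and 0 of 6 in HCT116, PC3 and T47D cells (1 in T47D at an unadjusted p under 0.05 in edgeR, and 0 by DESeq2). GABARAPL1 in A549 cells (0.90) and GABARAPL2 in HCT116 cells (-1.39) were named after their values were seen. MAP1LC3B and MAP1LC3B2 are near-identical copies, so their counts are uncertain. A list of 6 genes held ubiquitin-binding cargo receptors and their kinase TBK1. Of these 6, 2 were higher and 2 lower in A549, 2 and 0 in HCT116 and 0 in PC3 and in T47D cells (edgeR, with 1 gene in each direction in PC3 and 1 higher in T47D at an unadjusted p under 0.05, and 0 by DESeq2). The 2 lower in A549 cells, TAX1BP1 (-0.62) and TBK1 (-0.56), were named after their values were seen. NBR1 was higher in A549 (0.65) and HCT116 (1.14) cells.

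The genes whose responses were most like those of the 2 main receptors were sought among 11478 genes over the 12 hypoxic libraries, each taken as a log2 ratio to the normoxic mean of its line. Likeness was the root mean square of the difference in that ratio. Closest to BNIP3 were P4HA1 (0.453), FLJ23867 (0.483), RIMKLA (0.509), SLC2A1 (0.540) and PFKFB4 (0.586). P4HA1 is a subunit of collagen prolyl hydroxylase, SLC2A1 the glucose transporter GLUT1 and PFKFB4 a regulator of glycolysis. P4HA1 had mean ratios of 1.81 in A549, 2.92 in HCT116, 1.06 in PC3 and 2.97 in T47D cells. BNIP3L was nearest to KCTD11 (0.375), ADM (0.431), ENO2 (0.437), CCNG2 (0.502) and ALDOA (0.522), among them the peptide hormone adrenomedullin (ADM) and the glycolytic enzymes ENO2 and ALDOA. The lists of 5 share no gene. P4HA1, SLC2A1, PFKFB4, KCTD11, ADM and ALDOA belong to the hypoxia signature that the study derived in part from these libraries. Their place among the nearest genes is therefore not independent of that choice. For the other 4 the nearest were MRS2, SMIM7 and TTC1 to FUNDC1, NSMCE2, RPS14 and ACOT13 to FUNDC2, RAB43, ISG20 and GSN to PINK1, and C11orf58, CNBP and RAD1 to PHB2. RPS14, next to FUNDC2, encodes a cytosolic ribosomal protein. All these ratios share the normoxic mean of their line, and likeness describes these libraries without a test.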

How the data were processed

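Poly-A RNA of 24 libraries (3 per line and oxygen level, grouped by the labels) was sequenced after NEBNext Ultra II Directional library preparation. The deposited counts are whole-number fragments per gene made by the authors, who per the labels and methods trimmed with Trim Galore 0.3.3, aligned with HISAT2 2.05 to GRCh37, removed non-unique fragments with Picard 2.0.1 and counted with HTSeq 0.5.4p3 in intersection-strict mode. The strand setting is not given in the sources used here. Removing fragments that map more than once lowers genes with near-identical copies.

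Each line was fitted alone with edgeR 4.0.16 in R 4.3.3 (filterByExpr, TMM scaling, quasi-likelihood test), with Benjamini-Hochberg adjustment over 13466 to 14085 genes, and calls needed an adjusted p below 0.05 with more than a 1.2-fold change. Interactions, differences of effect and levels between lines came from a single fit of 24 libraries over 16089 genes. CPM used TMM library sizes, and RPKM used MANE Select transcript lengths (GENCODE, GRCh37). Alternatives were DESeq2 1.42.0, RLE factors, library totals, unfiltered genes, genes with mean counts from 50 up, a replicate block, a single fit and each library left out. Scripts were tested on simulated data. Depth ran from 22698584 to 62850747 counts, and no libraries were identical.

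Same-numbered libraries deviated together (every correlation over 0.1) in PC3 (0.16, 0.13 and 0.12) and T47D cells (0.23, 0.33 and 0.30), so the numbers were taken to pair them there. The main fits left this pairing out, and the replicate block, an alternative, used it. With the block 1281 genes were called higher and 1485 lower in T47D cells, against 922 and 942 without. In PC3 cells the block called 2349 and 2238, against 2237 and 2109. The sign flips of the BNIP3 to BNIP3L ratio paired libraries in all 4 lines. Named genes were the 6 members, from each list up to 4 genes of largest mean change among those called one way in at least 2 lines, and the 5 (BNIP3, BNIP3L) or 3 genes most alike in response. The members and lists were chosen with earlier results of these data known. The ribosomal protein set, the exon-union lengths and the rescaled likeness were added after seeing the data.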

Additional observations from a re-analysis of the deposited data

Results flagged for a closer look

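The hypoxia effect differed between the 4 lines, by the edgeR interaction test, for BNIP3 (adjusted p = 3.49e-08), BNIP3L (4.59e-04), FUNDC1 (0.0116) and FUNDC2 (0.0140). For BNIP3 the spread ran from a log2 change of 1.23 in PC3 to 3.60 in T47D cells, while BNIP3L ran from 0.51 in PC3 to 2.50 in HCT116 cells. FUNDC1 and FUNDC2 were flagged by HCT116 cells, where they changed by -1.44 and -1.81. The log2 ratio of BNIP3 to BNIP3L was lower in hypoxic A549 cells, with a change of -0.80 and each hypoxic library below each normoxic one, and higher in PC3 (0.71) and T47D cells (1.72), with each hypoxic library above each normoxic one. The difference between lines was not tested. Groups of 3 libraries are too small for the test of single outlying samples, which was not applied.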

How the results depend on the processing

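BNIP3 kept its direction and call in all 4 lines under all alternatives of the test, scaling, filter, block and left-out library, and the cause of each change below was not tested. A single fit of 24 libraries called 3 of the 6 genes in A549 and 2 in PC3 cells, with log2 changes of -0.48 for FUNDC1 and -0.35 for PHB2 in A549 and of 0.57 for BNIP3L, -0.33 for FUNDC1 and -0.37 for PHB2 in PC3 cells. Over left-out libraries the number of the 6 genes called ran from 3 to 5 in A549 and 3 to 6 in PC3 cells. The log2 changes then ran from -0.57 to -0.38 for FUNDC1 in A549, from -0.17 to 0.0837 for FUNDC2 in A549, from -0.42 to -0.27 for PHB2 in A549, from -0.94 to -0.61 for PHB2 in HCT116, from -0.49 to -0.24 for FUNDC1 in PC3, from -0.55 to -0.0775 for FUNDC2 in PC3, from -0.54 to -0.25 for PHB2 in PC3, from -0.78 to -0.38 for FUNDC2 in T47D and from 0.70 to 0.98 for PINK1 in T47D cells. Interactions were called for 2 to 4 genes without 1 replicate number, with adjusted p from 0.0185 to 0.277 for FUNDC1 and from 0.0147 to 0.127 for FUNDC2. The mean change of the BNIP3 to BNIP3L ratio ran from 0.43 to 0.54 over the same omissions. Sign flips of the 12 same-numbered pairs, taken in all 4 lines, gave 0.50 for that ratio with an exact p of 0.103. The replicate block changed no call of the hypoxia effect of the 6 genes within a line. In A549 and HCT116 cells same-numbered libraries deviated with correlations of 0.25, 0.15 and 0.0503 and of 0.34, 0.26 and 0.0890, so the numbers were not taken to pair them. Hypoxia replicate 3 correlated best with its own number in both lines. Normoxia replicate 3 correlated better with a hypoxia library of another number (0.13 in A549 and 0.12 in HCT116 cells). Small differences of effect that turned sign without a replicate number ran from -0.0494 to 0.46 for FUNDC1 PC3 minus A549, from -0.27 to 0.37 for FUNDC1 T47D minus PC3, from -0.61 to 0.21 for FUNDC2 PC3 minus A549, from -0.85 to 0.33 for FUNDC2 T47D minus PC3, from -0.0138 to 0.10 for PINK1 T47D minus A549, from -0.25 to 0.00400 for PINK1 T47D minus PC3, from -0.23 to 0.27 for PHB2 PC3 minus A549 and from -0.26 to 0.30 for PHB2 T47D minus PC3. PHB2 in PC3 minus A549 also turned to 0.0163 with library totals and 6.98e-04 with the block. Likewise level differences between neighbours ran from -0.0245 to 0.17 for BNIP3L PC3 minus T47D in normoxia, from -0.0943 to 0.54 for BNIP3L A549 minus HCT116 in normoxia, from -0.22 to 0.34 for FUNDC2 HCT116 minus A549 in normoxia, from -0.23 to 0.42 for FUNDC2 A549 minus PC3 in normoxia, from -0.28 to 0.46 for FUNDC2 PC3 minus T47D in normoxia, from -0.10 to 0.50 for BNIP3L A549 minus HCT116 in hypoxia, from -0.18 to 0.32 for BNIP3L HCT116 minus T47D in hypoxia and from -0.0920 to 0.13 for FUNDC1 PC3 minus A549 in hypoxia. Library totals turned BNIP3 in HCT116 minus T47D to -0.10, BNIP3L in PC3 minus T47D to -0.0529 and FUNDC2 in A549 minus PC3 to -0.0720, all in normoxia, and RLE factors turned FUNDC1 in PC3 minus A549 in hypoxia to -0.0306. Of the 77 listed genes, the single fit called 8 lower in A549, 3 higher and 0 lower in PC3 and 10 higher and 10 lower in T47D cells. In T47D cells 5 were higher with the block, and 7 were lower with DESeq2 and 11 with library totals. Without single libraries the counts ran from 11 to 19 lower in A549, from 4 to 10 higher in PC3, from 2 to 18 lower in PC3, from 0 to 8 higher in T47D and from 0 to 9 lower in T47D cells. Library totals moved the median of all genes to -0.13 in A549 and -0.12 in T47D cells and the split of calls from 2452 higher and 2476 lower to 1778 and 3461 in A549 and from 922 and 942 to 666 and 1412 in T47D cells. The lowest count of the 6 genes was 374, and the effect of unequal depth was not tested.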
